A study of Mus musculus with 15 samples.

Results

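Kidneys of mice given carbon tetrachloride (CCl4) alone were compared with kidneys of mice given olive oil. The comparison used the 4 CCl4 and 3 olive oil libraries, 7 of the 14 libraries with counts in a series of 15 labelled samples, and was defined by the treatment in the labels. All mice were male C57BL/6 with no altered allele named. Each CCl4 mouse had intraperitoneal injections of CCl4 for 6 weeks. CCl4 replicates 1 and 2 were taken at that point (6-week kidneys), while replicates 3 and 4 had a further 4 weeks of CCl4 at 0.5 times the dose (10-week kidneys). Olive oil mice had intraperitoneal olive oil for 6 weeks, and 1 more olive oil sample was not analysed here. The series also holds 3 libraries from mice given CCl4 for 6 weeks and then ethanol (EtOH) for 4 weeks, used below as a contrast, and 4 from mice given olive oil for 6 weeks and then EtOH for 4 weeks, which entered only the estimate of spread. The titles of the CCl4+EtOH samples name CCl4 a second time, so whether CCl4 went on during the EtOH weeks is unclear. Age, the absolute dose and any pooling of animals are not stated in the labels. The 6-week CCl4 kidneys match the olive oil kidneys in duration. For the 10-week kidneys, the added CCl4, the longer time and the later block of title numbers cannot be told apart.

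CCl4 is a classic liver toxicant. The cytochrome P450 CYP2E1 converts it to a trichloromethyl radical that attacks membrane lipids, and repeated dosing scars the liver. The proximal tubule of the kidney also carries CYP2E1. Injured tubules of the mouse switch on marker genes such as Havcr1 (kidney injury molecule KIM-1), Lcn2 (the lipocalin NGAL) and Spp1 (osteopontin). The title of the series names acute kidney injury in a mouse model of alcoholic liver fibrosis, and CCl4 alone is the arm of that model without alcohol.

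The 4 CCl4 and 3 olive oil libraries held between 17.4 and 23.6 M counts each. Spearman correlations between them ran from 0.9875 to 0.994. Kidney identity was plain in each: Kap (kidney androgen-regulated protein) was between 20500 and 31000 CPM (counts relative to library size, TMM-scaled) and Slc34a1, the proximal tubule phosphate transporter, between 5510 and 7520 CPM. Transcripts of surrounding tissue were uneven. Ucp1, the defining gene of brown fat, was at 17.1 and 13.4 CPM in 6-week and 119 and 13.7 CPM in 10-week CCl4 kidneys, against 21.2, 0.0883 and 0.0542 CPM in olive oil kidneys. All 14 adipocyte markers tested had positive log2 fold changes, with a median of 1.2 (0.68 without CCl4 replicate 3 and 1.72 without olive oil replicate 1), and their summed level was 521 to 1240 CPM in CCl4 kidneys and 285 to 567 CPM in olive oil kidneys. CCl4 replicate 3 had the highest sum, and it also carried adrenal transcripts (Cyp11b1 at 2.54 CPM). Cyp11b2, a defining adrenal marker, was at 0 counts throughout. Leaving out the library with the most Ucp1 in each group, CCl4 replicate 3 and olive oil replicate 1, leaves the difference in Ucp1 in place, so the part of these tissues in the results below was not tested.

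CCl4 alone left the kidney transcriptome close to that of olive oil kidneys. No gene of 16105 tested passed an adjusted p of 0.05 in edgeR's quasi-likelihood test (percent called 0), in either direction, and the adjusted p was 1 for every gene. The unadjusted p was under 0.05 for 310 genes with higher values in CCl4 kidneys (1.92%) and 330 with lower values (2.05%). Chance alone would give about 805 of 16105 genes in all. That fit took its spread from all 14 libraries. The spread between replicates (biological coefficient of variation) was 13.2% in CCl4 and 13.3% in olive oil kidneys. Within a schedule it was 9.38% in 6-week and 9.7% in 10-week CCl4 kidneys. It was 16.1% in EtOH and 25.9% in CCl4+EtOH kidneys. A fit of the 7 libraries alone, which takes no spread from the EtOH groups, also made no call. It had 1016 of 15421 genes at an unadjusted p under 0.05 and a smallest adjusted p of 0.63. In limma-voom, which made no call either, 1499 (sample weights) and 1050 (group weights) of 16105 genes had an unadjusted p under 0.05. The number of small unadjusted p thus varied with the fit, from below to above the number given by chance. DESeq2 called 1 gene, Rasd1. All 4 CCl4 values lay above all 3 olive oil values for 559 genes (3.47%) and below them for 603 (3.74%). For the pooled mean of the 4 CCl4 kidneys, the data bound what could have been missed. The 95% interval of the change lay within 2-fold either way for 81.6% of genes, and for 97.5% of the 10085 genes with a mean of at least 10 CPM. Within 1.5-fold the shares were 63.1% and 88%. These intervals do not bound the change at each schedule. For Cyp2d22 the pooled interval ran from -0.3 to 0.83, while log2 fold changes were 0.69 in 6-week and -0.35 in 10-week kidneys.

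**Figure D1:**
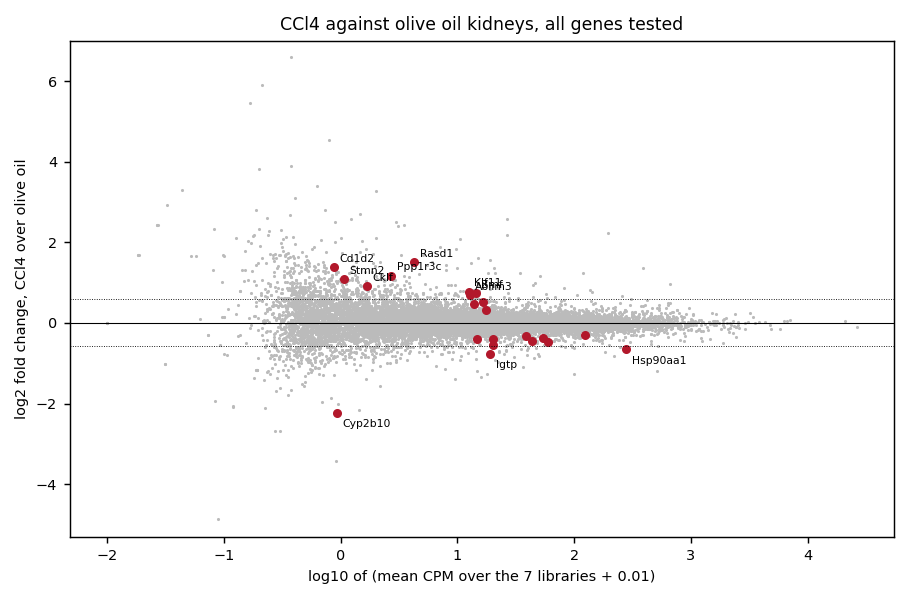
Log2 fold change of CCl4 over olive oil kidneys (y axis, with dotted lines at 1.5-fold) against log10 of the mean CPM over the 7 libraries plus 0.01 (x axis), 1 point per gene tested. Red points are the genes named below for their small unadjusted p among those with no overlap between groups. Most genes lie between the dotted lines, and the named genes are among many others of like size.

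Principal components over all genes set libraries apart by schedule and treatment, with fat transcripts among the leading weights of both. On the first principal component (29.7% of the variance) the 6-week CCl4 kidneys scored 16.9 and 5.77 and the 10-week CCl4 kidneys -24.7 and -13.8, against 5.69, 14.2 and -4.08 for olive oil kidneys. That component set the 10-week kidneys apart from the 6-week CCl4 and olive oil kidneys. On the second (20.2%) the CCl4 kidneys scored 15.7, 12.8, 9.05 and -2.68, against -7.7, -12 and -15.1 for olive oil kidneys, with no overlap. Its positive end was led by Ucp1 (weight 0.139) and held the fat genes Cidea, Cidec, Adipoq, Plin1, Cfd and Fabp4, and Ucp1, Cidea and Cox8b were also at the negative end of the first. The part of the uneven fat transcripts in this order was not tested.

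Rasd1, a small Ras-related GTPase first described as induced by the glucocorticoid dexamethasone, had the smallest unadjusted p of the genes with no overlap. It was at 6.63 and 4.54 CPM in 6-week and 6.73 and 5.65 CPM in 10-week CCl4 kidneys, against 1.7, 1.77 and 2.71 CPM in olive oil kidneys. Every CCl4 value exceeded every olive oil value and both schedules gave like levels. The log2 fold change was 1.51 ± 0.28 (SE), with an unadjusted p of 0.000112 and an adjusted p of 1 in edgeR's quasi-likelihood test, and DESeq2 gave an adjusted p of 0.00525. Klf11, a TGF-beta-inducible transcription factor, was at 15.9, 18.1, 12.8 and 14 CPM in CCl4 kidneys, against 9.86, 7.82 and 9.05 CPM in olive oil kidneys (log2 fold change 0.77 ± 0.20). Ablim3, an actin-binding protein, was at 15.1, 17.6, 12.9 and 15 CPM in CCl4 kidneys, against 9.21, 11 and 8.18 CPM in olive oil kidneys (0.68 ± 0.14). Neither gene's groups overlapped. Of the remaining genes chosen by the same rule, 8 are reported, with log2 fold changes between 0.33 and 1.38. They were Bmf (0.74), a BH3-only promoter of apoptosis, Ppp1r3c (1.17), which targets a phosphatase to glycogen, Cd1d2 (1.38), which presents lipid antigens, Stmn2 (1.09), a microtubule regulator, Cklf (0.91), a chemokine-like factor, Peg3 (0.52), an imprinted zinc finger gene, Caprin2 (0.47), an RNA-binding protein, and Dnal1 (0.33), a dynein light chain. Cd1d2, Stmn2 and Cklf lay under 5 CPM in every library of both groups.

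Among genes with lower values in CCl4 kidneys, Mfhas1, a leucine-rich repeat protein, was at 45.5, 52, 47.7 and 58.1 CPM in CCl4 kidneys, against 73.4, 65.8 and 72.8 CPM in olive oil kidneys. The groups did not overlap, the log2 fold change was -0.48 ± 0.10, and the unadjusted p in edgeR's quasi-likelihood test was 0.000285. Both Nab genes, which encode co-repressors of the EGR transcription factors, were on this side. Nab2 was at 18.4, 16.8, 15.5 and 16.9 CPM in CCl4 kidneys, against 27, 26.9 and 20.8 CPM in olive oil kidneys (-0.56), and Nab1 at 47.9, 51.4, 46.2 and 46.6 CPM, against 69.3, 57.9 and 60 CPM (-0.38). Cyp2b10, the drug-metabolizing P450 that is a standard target of the receptor CAR in mouse liver, showed the greatest fold of the 12 genes chosen. It was at 0.207, 0.148, 0.768 and 0.304 CPM in CCl4 kidneys, against 1.82, 1.06 and 2.11 CPM in olive oil kidneys (-2.23 ± 0.59), so both groups were low and did not overlap. Hsp90aa1, the inducible HSP90 chaperone, was at 184, 222, 243 and 250 CPM in CCl4 kidneys, against 361, 420 and 273.7 CPM in olive oil kidneys (-0.65 ± 0.18). The others reported were Igtp, described next, Slc45a3 (-0.46), a membrane transporter, Hivep1 (-0.33), a zinc finger protein, Kifc3 (-0.31), a kinesin, Sec22c (-0.40), a vesicle trafficking protein, and Tmem125 (-0.39), a membrane protein. In all, 493 genes with higher and 579 with lower values had no overlap and reached 1 CPM or more as the mean of the higher group, so the genes named are the ends of those lists.

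Igtp (Irgm3) belongs to the interferon-inducible GTPases, the immunity-related and guanylate-binding proteins that coat and break the vacuoles of intracellular pathogens in mice. Their genes are induced by interferon-gamma through GAS elements and by interferons through ISRE elements. The 250 bases upstream of the start of 3 family members whose groups did not overlap are shown because all 3 hold both elements; capitals mark matches to TTCNNNGAA (GAS) or to GAAA repeated after any 2 bases (ISRE) on either strand, and sequences and positions are from RefSeq, build GRCm38.p6, forward strand.
Igtp, chr11:58199306-58199555: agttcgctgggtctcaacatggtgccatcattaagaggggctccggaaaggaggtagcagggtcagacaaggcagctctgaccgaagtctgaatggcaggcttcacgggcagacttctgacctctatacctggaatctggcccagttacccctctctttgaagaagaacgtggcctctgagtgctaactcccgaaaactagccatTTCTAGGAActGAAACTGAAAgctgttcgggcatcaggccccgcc
Irgm2, chr11:58214727-58214976: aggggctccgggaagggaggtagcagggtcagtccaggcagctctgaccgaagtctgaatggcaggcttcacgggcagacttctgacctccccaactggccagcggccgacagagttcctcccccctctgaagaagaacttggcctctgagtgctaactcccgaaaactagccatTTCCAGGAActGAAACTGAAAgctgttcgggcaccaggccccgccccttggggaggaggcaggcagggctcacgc
Gbp7, chr3:142530086-142530335: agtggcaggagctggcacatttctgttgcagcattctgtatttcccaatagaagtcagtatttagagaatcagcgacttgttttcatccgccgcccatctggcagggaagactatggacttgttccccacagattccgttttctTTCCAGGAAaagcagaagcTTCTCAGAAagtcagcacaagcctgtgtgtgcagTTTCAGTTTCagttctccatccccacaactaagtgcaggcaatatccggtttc
Of all 32851 mouse promoters of this length, 7.02% held the GAS letters and 2.98% the ISRE letters. In Igtp the GAS match began at -45 and the ISRE match at -34 from the start, in Irgm2 at -75 and -64, and in Gbp7 at -106 and -87 (GAS) and -53 (ISRE). The promoter table matched 10 of 18 family genes with 11 promoters, of which 6 held the GAS and 10 the ISRE letters. These are matches of letters, not measured sites.

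Igtp was at 12.9 and 12.9 CPM in 6-week and 15.9 and 17.6 CPM in 10-week CCl4 kidneys, against 27.8, 26.8 and 20.4 CPM in olive oil kidneys. Irgm2, a related gene close by on the same chromosome, was at 23.7, 22.2, 26 and 24.9 CPM in CCl4 kidneys, against 38.1, 31.6 and 34.9 CPM in olive oil kidneys. Gbp10, a guanylate-binding protein, was at 5.03, 5.87, 7.68 and 7.48 CPM in CCl4 kidneys, against 11.6, 12.5 and 12.2 CPM in olive oil kidneys. Every CCl4 value of these genes lay below every olive oil value and, in all 3, the 6-week kidneys were lowest. Log2 fold changes were -0.76 ± 0.19 for Igtp, -0.53 ± 0.16 for Irgm2, -0.90 ± 0.30 for Gbp10 and -0.42 ± 0.29 for Gbp7, each with an adjusted p of 1. Of 17 family genes tested, 13 had negative log2 fold changes, where 49.5% of all genes had positive ones. All 4 CCl4 values lay below the olive oil values for 9 of them (Gbp6, Gbp7, Gbp10, Igtp, Iigp1, Irgm1, Irgm2, Tgtp1 and Tgtp2) and above for 1 (Gbp5), where 3.74% and 3.47% of all genes did so. The family was assembled after Igtp had been seen, so these counts describe it and are no test. The family's median was -0.42, and it was -0.52 in 6-week and -0.22 in 10-week kidneys. In the 6-week kidneys, the fit of the 7 libraries alone called Gbp6 (-1.06, adjusted p = 0.0361) and Gbp10 (-1.15, adjusted p = 0.0376) in edgeR's quasi-likelihood test, whereas the fit of all libraries did not. Gbp6 and Gbp10, and Tgtp1 and Tgtp2, are close in sequence, so reads may have been split between them.

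**Figure D2:**
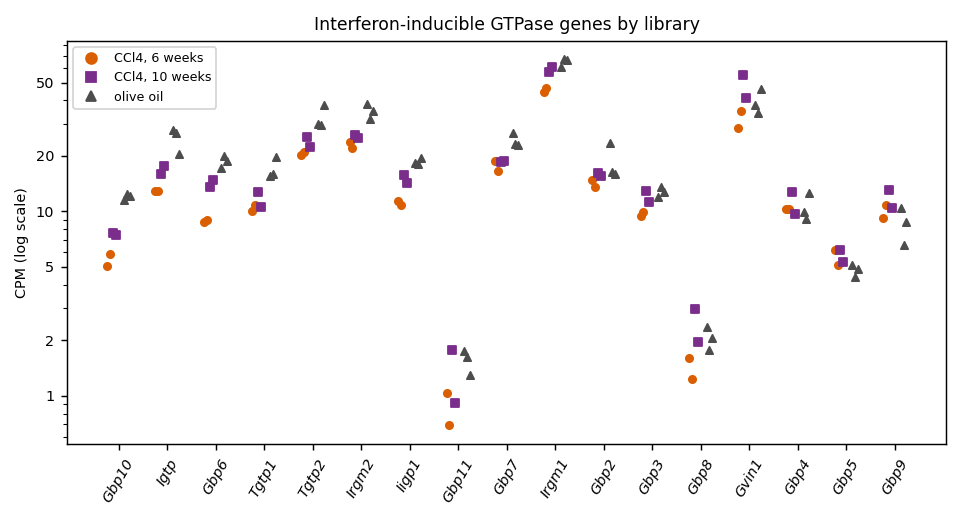
CPM (log scale) of the 17 interferon-inducible GTPase genes tested, ordered by log2 fold change, in 6-week CCl4 (orange circles), 10-week CCl4 (purple squares) and olive oil kidneys (grey triangles), 1 point per library. From Gbp10 to Irgm2 all CCl4 points lie below the olive oil points, while Gbp4, Gbp5 and Gbp9 at the right are level or higher.

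In the wider list of 30 interferon-stimulated genes, 14 had positive and 16 negative log2 fold changes, with a median of -0.01. The median was -0.28 in 6-week and 0.22 in 10-week kidneys. In 4 the CCl4 values lay below and in 1 above all olive oil values. Of those 4, Gbp7, Igtp and Iigp1 are GTPases, and the other is Stat2, a transcription factor of the interferon response. That 1 gene was Xaf1, a pro-apoptotic interferon target, at 5.65, 5.28, 7.92 and 6.08 CPM in CCl4 kidneys, against 5.1, 3.98 and 4.44 CPM in olive oil kidneys.

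No member of any of the 21 pathway lists or of the marker lists passed the adjusted threshold in CCl4 against olive oil kidneys. Counts below of genes without overlap between these groups are set against 3.47% (higher) and 3.74% (lower) of all genes. For positive log2 fold changes the share of all genes was 49.5%, and for an interval within 2-fold 81.6%. For an unadjusted p under 0.05 in edgeR's quasi-likelihood test it was 1.92% (higher) and 2.05% (lower).

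Enzymes that activate CCl4 were at like levels in both groups. Cyp2e1 was at 1720, 1740, 1830 and 2120 CPM in CCl4 kidneys, against 1380, 1640 and 2680 CPM in olive oil kidneys. The CCl4 values fell inside the olive oil range, the log2 fold change was -0.04 ± 0.24, and its 95% interval ran from -0.55 to 0.47. Without olive oil replicate 3 it was 0.29. Of the 27 genes listed with P450 functions, 14 were positive and 13 negative, 1 was higher and 2 were lower without overlap, and the median was 0.02. Cyp4a12a, a male-specific fatty acid hydroxylase, was at 76.3, 113, 183 and 195 CPM in CCl4 kidneys, against 174, 229 and 302 CPM in olive oil kidneys (-0.73), with the 10-week kidneys inside the olive oil range. Cyp4a12b, its near-identical neighbour, was at 58.1, 80.5, 77.9 and 93.8 CPM in CCl4 kidneys, against 103, 142 and 111 CPM in olive oil kidneys (-0.61), without overlap.

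The glutathione and NRF2 antioxidant genes, which meet oxidant stress, had a median of -0.07 over 33 genes, with 1 higher and 5 lower without overlap. Gclc, the catalytic subunit of the rate-limiting enzyme of glutathione synthesis, was at 283, 310, 312 and 401 CPM in CCl4 kidneys, against 1150, 715 and 380 CPM in olive oil kidneys (-1.19 ± 0.36). The 3 olive oil values were themselves spread widely and overlapped the highest CCl4 value. Without olive oil replicate 1 the log2 fold change was -0.75. The classic NRF2 targets Hmox1 and Nqo1 did not separate. Hmox1, heme oxygenase, was at 34.4, 38.4, 44.2 and 47.9 CPM in CCl4 kidneys, against 42.9, 46.6 and 34.2 CPM in olive oil kidneys (0.00 ± 0.26). Nqo1, a quinone reductase, had a log2 fold change of -0.14. Gstp1 (-0.34) and Srxn1 (-0.21), which conjugate glutathione and repair peroxiredoxins, were lower without overlap.

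No difference in tubule injury genes was detectable. Havcr1 was at 5.91 and 5.08 CPM in 6-week and 6.56 and 16.3 CPM in 10-week CCl4 kidneys, against 11.9, 6.76 and 5.31 CPM in olive oil kidneys. Lcn2 was at 5.65, 2.66, 6.97 and 9.55 CPM in CCl4 kidneys, against 10.6, 3.67 and 3.85 CPM in olive oil kidneys. The groups overlapped for both, though for Havcr1 replicate 4 stood above the rest. Log2 fold changes were 0.08 ± 0.74 for Havcr1 and 0.05 ± 0.74 for Lcn2, and the interval of Havcr1, from -1.53 to 1.70, leaves room for a change of more than 2-fold. Without CCl4 replicate 4 Havcr1 was at -0.44 and Lcn2 at -0.23, and without olive oil replicate 1 they were at 0.47 and 0.71. Spp1 was at 1180, 1300, 917 and 1060 CPM in CCl4 kidneys, against 1140, 1050 and 650 CPM in olive oil kidneys (0.23), again with overlap. Of the 26 injury and repair genes, 16 were positive and 10 negative, the median was 0.08, and 9 had an interval within 2-fold. Plin2, the coat protein of lipid droplets, was the 1 gene higher without overlap, at 112, 113, 133 and 123 CPM in CCl4 kidneys, against 92.4, 91.5 and 104 CPM in olive oil kidneys (0.33 ± 0.14). Cdh6, a cadherin of the nephron, was the 1 gene lower without overlap (-0.59), at under 3 CPM.

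Injury genes were also compared between CCl4 and CCl4+EtOH kidneys. The EtOH weeks bring the CCl4+EtOH kidneys to 10 weeks, while 2 of the 4 CCl4 kidneys were taken at 6 weeks. In that comparison 3007 of 16105 genes were lower in CCl4 kidneys (18.7%) and 2603 higher (16.2%) at an adjusted p under 0.05 in edgeR's quasi-likelihood test. Of the 26 injury genes 23 were lower in CCl4 kidneys and none was higher, with a median log2 fold change of -2.07. With only the 10-week CCl4 kidneys in the contrast, 19 were lower and the median was -2.01. Of all 16442 genes in that contrast, 1942 were lower. CCl4+EtOH replicate 3 stood apart, with injury genes summing to 6000 CPM, against 42000 and 30900 CPM in replicates 1 and 2. Leaving out each CCl4+EtOH library in turn gave 18, 20 and 25 lower injury genes, with medians of -1.70, -1.90 and -2.46 without replicates 1, 2 and 3. In the same order, 3480, 3582 and 7396 of all genes were called in either direction. Havcr1 averaged 8.46 ± 5.26 CPM in CCl4 kidneys (SD, n = 4) and 1090 ± 948 CPM in CCl4+EtOH kidneys (SD, n = 3, range 108 to 2000 CPM), a log2 fold change of -7.02 ± 0.69 with an adjusted p of 0.000147 in edgeR's quasi-likelihood test. Vcam1, an endothelial and tubular adhesion molecule, differed by -4.03 (adjusted p = 9.74e-05) and Cdh6 by -3.83 (adjusted p = 1.17e-05). Cyp2e1 differed the other way, by 2.15 (adjusted p = 0.000114), as did Kap, by 2.92 (adjusted p = 5.18e-05).

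**Figure D3:**
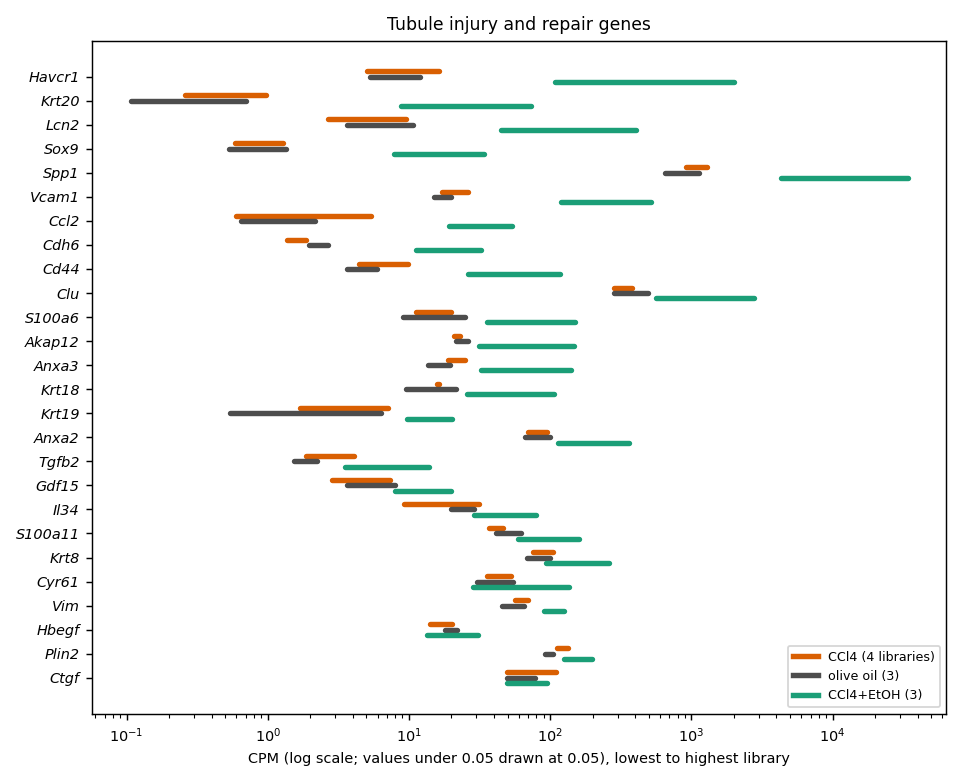
Range of CPM (log scale, lowest to highest library) of the 26 tubule injury and repair genes in CCl4 (orange, 4 libraries), olive oil (grey, 3) and CCl4+EtOH kidneys (green, 3). The CCl4 and olive oil bars overlap for most genes, while the CCl4+EtOH bars of Havcr1, Krt20, Lcn2, Spp1 and Vcam1 lie wholly to the right.

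Fibrosis and inflammation genes likewise had no common direction. Col1a1, the main fibrillar collagen, was at 37.2, 88.6, 80.1 and 85.2 CPM in CCl4 kidneys, against 115, 69.5 and 31.9 CPM in olive oil kidneys, and the olive oil values enclosed all CCl4 values (0.01 ± 0.47). Tgfb1, the cytokine that drives scarring, was at 9.43, 11.2, 11.5 and 12.8 CPM in CCl4 kidneys, against 12.3, 11.3 and 11.3 CPM in olive oil kidneys (-0.05 ± 0.19). The 35 matrix genes had a median of 0.05, with none separated in either direction. Timp1, a protease inhibitor raised in fibrosis, was under 7 CPM in all 7 libraries with a log2 fold change of -0.78, and 0.31 without olive oil replicate 1. The 28 NF-kB and cytokine genes had a pooled median of 0.05, with -0.10 in 6-week and 0.16 in 10-week kidneys. Tnf, an inflammatory cytokine, was under 1 CPM in all 7 libraries. Among 28 complement and acute phase genes 2 were higher and 2 lower without overlap, and their median was 0.11. C4b, the complement component, was at 34.8 and 36.9 CPM in 6-week and 54.8 and 59.2 CPM in 10-week CCl4 kidneys, against 34.7, 26.1 and 35.4 CPM in olive oil kidneys (0.53). Itih4 (-0.82) and Hpx (-1.08), genes mainly of liver, were lower without overlap, and 11 of 12 hepatocyte markers had negative log2 fold changes (median -0.39, which was -0.85 without CCl4 replicate 1 and -0.10 without olive oil replicate 2). The hepatocyte markers summed to 118 to 270 CPM in CCl4 kidneys and 209 to 284 CPM in olive oil kidneys. Whether liver RNA takes part in the values of Itih4 and Hpx was not tested.

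Immediate early genes, which neurons, tubules and other cells switch on within minutes of a stimulus, leaned higher in CCl4 kidneys. Of 23 genes 21 had positive log2 fold changes, with a median of 0.35. Fos was at 3.52 and 5.38 CPM in 6-week and 13.6 and 10.7 CPM in 10-week CCl4 kidneys, against 1.7, 3.45 and 3.52 CPM in olive oil kidneys (1.5 ± 0.55). Egr1, the zinc finger factor held back by the Nab proteins, was at 12.8, 21.5, 32.2 and 31.6 CPM in CCl4 kidneys, against 5.98, 15.2 and 9.43 CPM in olive oil kidneys (1.25 ± 0.42). Nr4a2, an orphan nuclear receptor, was at 0.83, 1.58, 1.42 and 1.22 CPM in CCl4 kidneys, against 0.821, 0.574 and 0.488 CPM in olive oil kidneys (1.01 ± 0.35). The 10-week kidneys were highest for Fos and Egr1, and replicate 1 came within the olive oil range for Egr1 and close to it for Fos and Nr4a2. In 4 of the 23 genes the groups did not overlap, all with higher CCl4 values, and 6 had an unadjusted p under 0.05. The list's mean log2(CPM + 1) was 3.15, 3.13, 3.30 and 3.32 in CCl4 kidneys, against 2.82, 2.94 and 2.99 in olive oil kidneys, without overlap. Its median stayed between 0.25 and 0.44 when any 1 of the 7 libraries was left out. The time from death to freezing is not in the labels, and its part was not tested.

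Cell cycle genes leaned the same way at low levels. Of 30 genes 29 had positive log2 fold changes, the median was 0.32, and 6 were higher without overlap. None had an unadjusted p under 0.05 in edgeR's quasi-likelihood test. Ccnb2, a mitotic cyclin, was at 1.61, 1.53, 1 and 3.28 CPM in CCl4 kidneys, against 0.704, 0.353 and 0.921 CPM in olive oil kidneys (1.5 ± 0.76). Mki67, the proliferation marker Ki-67, was at 4.41, 4.79, 7.38 and 11.9 CPM in CCl4 kidneys, against 4.52, 3.36 and 3.96 CPM in olive oil kidneys (0.84), where replicate 1 lay within the olive oil range and the 10-week kidneys above it. The 22 p53 target genes had a median of 0.02.

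Chaperones leaned lower. Of 32 ER stress and heat shock genes 25 had negative log2 fold changes, with a median of -0.20, and 8 were lower without overlap. Besides Hsp90aa1, the constitutive Hsp90ab1 was at 1040, 1090, 1020 and 1210 CPM in CCl4 kidneys, against 1330, 1540 and 1360 CPM in olive oil kidneys (-0.37 ± 0.13). Dnaja1 was at 122, 137, 158 and 161 CPM in CCl4 kidneys, against 175, 172 and 177 CPM in olive oil kidneys (-0.27). Hsph1 had a log2 fold change of -0.30. The median was -0.33 in 6-week and -0.07 in 10-week kidneys, so the lean lay mainly in the 6-week kidneys.

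Lipid genes split into groups. Of 24 cholesterol synthesis genes 23 had negative log2 fold changes (median -0.21), and 5 were lower without overlap. Sqle, squalene epoxidase, was at 74.3 and 86.2 CPM in 6-week and 94.6 and 103 CPM in 10-week CCl4 kidneys, against 133, 100 and 116 CPM in olive oil kidneys (-0.38 ± 0.18). The 6-week kidneys lay below all olive oil kidneys, and only replicate 4 of the CCl4 kidneys reached their range. Sc4mol, a sterol demethylation enzyme named here after its values were seen, was at 21.8, 43.7, 44.6 and 40.6 CPM in CCl4 kidneys, against 59.4, 51 and 46.2 CPM in olive oil kidneys (-0.47 ± 0.24), without overlap. The list's median was between -0.27 and -0.14 when any 1 library was left out.

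Genes of fatty acid oxidation, many of them targets of the receptor PPARA, leaned higher: 35 of 39 were positive (median 0.19) and 4 were higher without overlap. The list's median was 0.28 in 6-week and 0.10 in 10-week kidneys. Angptl4, a lipase inhibitor induced by fasting, was at 101 and 79.7 CPM in 6-week and 45.5 and 49.2 CPM in 10-week CCl4 kidneys, against 45.1, 57.6 and 23.7 CPM in olive oil kidneys (0.71 ± 0.36). The 6-week kidneys lay above all olive oil kidneys, and the 10-week kidneys overlapped them. Slc25a20, which carries acylcarnitines into mitochondria, was at 109, 89, 73.2 and 74.4 CPM in CCl4 kidneys, against 68.5, 66.7 and 54.6 CPM in olive oil kidneys (0.45 ± 0.16), without overlap. Acot3, a peroxisomal acyl-CoA thioesterase, was at 47 and 40.2 CPM in 6-week and 20.7 and 22.3 CPM in 10-week CCl4 kidneys, against 16.9, 22.7 and 19.3 CPM in olive oil kidneys. The fit of the 7 libraries alone called its 6-week log2 fold change of 1.15 (edgeR's quasi-likelihood test, adjusted p = 0.0361). Feeding before necropsy is not in the labels.

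Fatty acid synthesis genes were highest in 1 library. Fasn, fatty acid synthase, was at 208, 294, 1240 and 363 CPM in CCl4 kidneys, against 290, 153 and 169 CPM in olive oil kidneys (1.37). Scd1, stearoyl-CoA desaturase, was at 643, 554, 1650 and 519 CPM in CCl4 kidneys, against 637, 317 and 350 CPM in olive oil kidneys. For both, replicate 3, the library with the most brown fat transcripts, was far above the other CCl4 libraries, and without it the log2 fold change of Fasn was 0.50. Replicate 4, the other 10-week kidney, lay above the olive oil range for Fasn and within it for Scd1. In 10-week kidneys the log2 fold change of Fasn was 1.97. DESeq2 called Acaca there (1.56, adjusted p = 0.0182), at 125 and 50.4 CPM, against 37, 27.9 and 23.9 CPM in olive oil kidneys. The list's median was 0.01 in 6-week and 0.18 in 10-week kidneys. No gene of the 20 in the list was separated.

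Androgen-regulated kidney genes were lowest in 6-week kidneys. Of 13 genes 12 had negative log2 fold changes, with medians of -0.68 in 6-week and 0.00 in 10-week kidneys. Cyp7b1, an oxysterol and steroid hydroxylase, was at 155, 130, 210 and 169 CPM in CCl4 kidneys, against 396, 203 and 282 CPM in olive oil kidneys (-0.82). No gene of this list was separated, and the pooled median was 0.04 without olive oil replicate 3 and -0.40 without CCl4 replicate 4.

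Oxidative phosphorylation genes had a median log2 fold change of 0.00, with single values between -0.15 and 0.10. All 39 had an interval within 2-fold, as had 97.5% of all genes with a mean of at least 10 CPM. Against CCl4+EtOH kidneys, 38 of the 39 were higher in CCl4 kidneys at an adjusted p under 0.05 in edgeR's quasi-likelihood test, where 16.2% of all genes were. Glycolysis genes had a median of 0.05 over 26 genes, and amino acid, clock, renin-angiotensin and iron and heme genes had medians between -0.02 and 0.04. Alas1, the rate-limiting enzyme of heme synthesis, was at 120, 145, 165 and 154 CPM in CCl4 kidneys, against 220, 213 and 185 CPM in olive oil kidneys (-0.50 ± 0.19), without overlap.

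**Figure D4:**
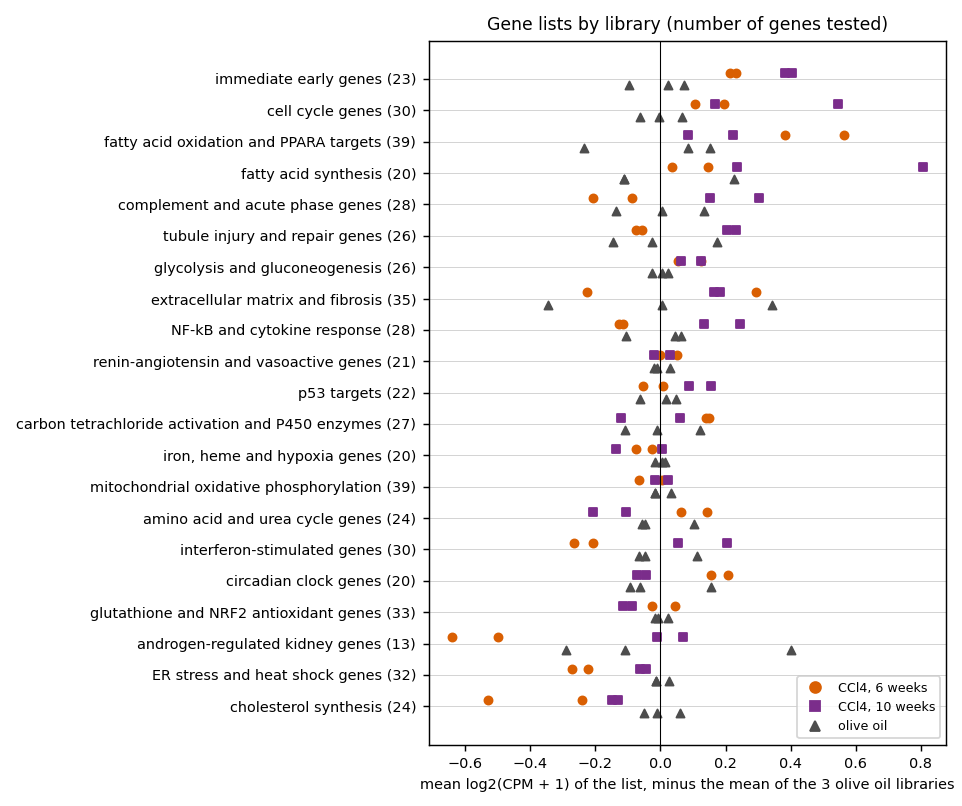
Mean log2(CPM + 1) of each of the 21 pathway lists per library, minus the mean of the 3 olive oil libraries (x axis), for 6-week CCl4 (orange circles), 10-week CCl4 (purple squares) and olive oil kidneys (grey triangles), with the number of genes tested in brackets. Immediate early and cell cycle lists lie to the right of all olive oil points, cholesterol synthesis and chaperone lists to the left, and most others overlap.

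**Figure D5:**
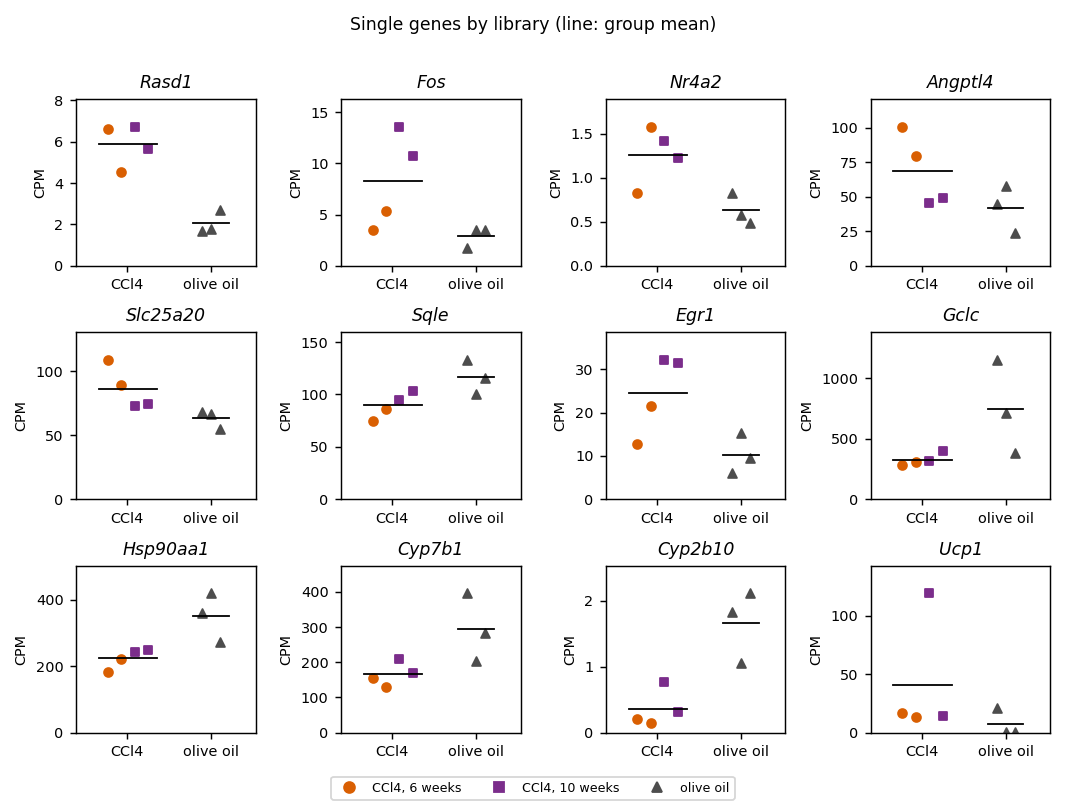
CPM of 12 genes by library in CCl4 (left, 6-week circles and 10-week squares) and olive oil kidneys (right, triangles), with lines at group means. Rasd1 and Cyp2b10 show no overlap, Angptl4 is above the olive oil points in 6-week kidneys only, Gclc varies widely among olive oil kidneys, and Ucp1 has 1 high CCl4 library.

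Markers of nephron segments had medians near 0. Proximal tubule markers had a median of 0.07 over 25 genes, loop of Henle and distal tubule markers -0.06 over 19 and collecting duct markers -0.01 over 17. Podocyte markers had a median of 0.19 and endothelial markers 0.06. In whole kidney, fewer cells of a type and less RNA per cell cannot be told apart. Macrophage and myeloid markers differed by schedule in their medians, at -0.29 in 6-week and 0.77 in 10-week kidneys. Summed levels in CCl4 kidneys were 267 and 385 CPM at 6 weeks and 708 and 451 CPM at 10 weeks. Olive oil kidneys had 441, 308 and 380 CPM. CCl4 replicate 2 thus lay within the olive oil range and CCl4 replicate 4 just above it. The pooled median was 0.33, and -0.06 without CCl4 replicate 3. Neutrophil markers were scarce in all, at 3.58 and 5.38 CPM summed in 6-week and 46.3 and 21.2 CPM in 10-week CCl4 kidneys, against 17.8, 6.71 and 18.4 CPM in olive oil kidneys.

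Splitting CCl4 kidneys by schedule raised the share of genes with an unadjusted p under 0.05 without giving a call. Over 16442 genes it was 4.88% for 6-week kidneys against olive oil, 5.24% for 10-week kidneys against olive oil and 6.67% for 10-week against 6-week kidneys, while percent called was 0 in each and the smallest adjusted p in edgeR's quasi-likelihood test was 0.811, 0.431 and 0.273 in that order. DESeq2 called 5, 15 and 25 genes in the same order.

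In 6-week kidneys Lgals4, a galectin of epithelia, was at 43.5 and 29.8 CPM, against 16.1, 14.4 and 15.6 CPM in olive oil kidneys (1.26 ± 0.24), and the 10-week kidneys, at 19.1 and 19 CPM, were between them. Lgals6, a near-identical copy, had like values and may share its reads. Ces2b, a carboxylesterase, was at 17.5 and 19.2 CPM in 6-week kidneys, against 35.3, 40.5 and 31.8 CPM in olive oil kidneys (-0.96 ± 0.17), and at 25.9 and 35.6 CPM in 10-week kidneys. DESeq2 called both Lgals4 (adjusted p = 0.0105) and Ces2b (adjusted p = 0.00471). So did limma-voom with sample weights (adjusted p = 0.0306 for each), but not with group weights. In edgeR's quasi-likelihood test the fit of all libraries called neither, and the fit of the 7 libraries alone called Lgals4 (adjusted p = 0.0361).

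In 10-week kidneys Zbed6, a transposon-derived transcriptional repressor of Igf2, was at 28.2 and 20.6 CPM, against 11.6, 10 and 11.9 CPM in olive oil kidneys (1.13 ± 0.18), and the 6-week kidneys lay at 11.3 and 9.18 CPM. Syk, the kinase of immune receptor signalling, was at 12.8 and 8.82 CPM in 10-week kidneys, against 4.75, 4.64 and 5.37 CPM in olive oil kidneys (1.14), and at 4.09 and 5.38 CPM in 6-week kidneys. For both genes only the 10-week kidneys stood above the olive oil range by a wide margin. DESeq2 called both against olive oil (adjusted p = 0.000501 for Zbed6 and 0.00284 for Syk). Of these genes, limma-voom with sample weights called only Zbed6 (adjusted p = 0.0386), and with group weights neither.

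Cyp2d9, a male-predominant steroid hydroxylase, was at 90.2 and 108 CPM in 10-week kidneys, against 361 and 227 CPM in 6-week kidneys, a log2 fold change of -1.57 ± 0.26. Olive oil kidneys, at 282, 244 and 183 CPM, lay above the 10-week kidneys and overlapped the 6-week ones. DESeq2 gave an adjusted p of 4.1e-05 for this difference, and edgeR's quasi-likelihood test did not call it in either fit. With limma-voom the adjusted p was 0.0324 with sample weights and 0.0327 with group weights. All 10 Cyp2d genes tested, including 1 pseudogene, had negative log2 fold changes in 10-week against 6-week kidneys, between -2.14 and -0.59 with a median of -1.28. Cyp2d22, often likened to human CYP2D6, was at 27.3 and 25.4 CPM in 10-week kidneys, against 53.6 and 55 CPM in 6-week kidneys, with olive oil kidneys at 33.7, 39.5 and 27.7 CPM. For Cyp2d26 the 10-week kidneys, at 112 and 110 CPM, lay within the olive oil range of 87.7 to 151 CPM, and the 6-week kidneys, at 219 and 212 CPM, above it. Reads can be shared among these related genes, and the family was assembled after its first members had been seen.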

How the data were processed

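RNA of flash-frozen mouse kidneys was extracted with a spin-column kit and sequenced by Illumina protocols, per the labels. The authors deposited raw read counts per gene symbol, with no normalization, 1 column per library. GSNAP and mm9 are named per the submitters' processing notes. For the counting program, the annotation and strand, nothing is given in the sources used here, and overlapping antisense genes cannot be told apart. Of 23893 rows, 27 with a calendar date in place of a symbol were dropped (at most 0.209% of counts), and 72 rows in 32 sets shared identical counts.

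R 4.3.3 and edgeR 4.0.16 were used to test genes that passed filterByExpr (TMM scaling, robust quasi-likelihood test, all 14 libraries in 4 groups, or 5 with the CCl4 schedules split), with Benjamini-Hochberg adjustment over all genes tested. SE and intervals (level 0.95) are Wald values of that fit, scaled by its quasi-likelihood dispersion. CPM are TMM-scaled. Alternatives used DESeq2 1.42.0 and limma 3.58.1. Scripts were tested on simulated data. P-values measure the spread between libraries labelled as separate samples. Replicate pairs differed beyond sampling noise (chi-square per gene at least 10.3).

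Genes named were the 12 per direction (4 for schedules) with the smallest unadjusted p among those without overlap that averaged 1 CPM or more in their higher group, up to 3 per list, and a panel of injury genes. Families and single genes outside this rule were chosen after their values were seen. The comparison, lists and rules were chosen with earlier results of these data known. Predicted genes were left unnamed. A few of the genes picked this way are not reported here.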

Additional observations from a re-analysis of the deposited data

Results flagged for a closer look

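Of 167 named genes and 38 lists, 16 genes and 2 lists had 1 of the 4 CCl4 libraries far from the other 3 by Dixon's 95% criterion. Chance gives such a gap in about 1 group of 20.

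CCl4 replicate 3, the 10-week kidney with the most brown fat and adrenal transcripts, stood highest for Fasn (1240 CPM), Scd1 (1650 CPM), Thrsp, a lipogenic regulator (103 CPM), Hk2, hexokinase 2 (18.8 CPM), Cd3g, a T cell receptor chain (1.18 CPM), and the adrenal steroid hydroxylases Cyp11b1 (2.54 CPM) and Cyp21a1 (3.9 CPM). The adrenal cortex markers averaged 2.38 on the log2(CPM + 1) scale there, against 1.53 to 1.55 in the other CCl4 kidneys. CCl4 replicate 1, a 6-week kidney, stood highest for the liver-type genes Serpina1e (36.5 CPM), Serpina1a (61.6 CPM), Ahsg (10.3 CPM) and Hpx (5.91 CPM), and lowest for Col1a1 (37.2 CPM). Its hepatocyte markers averaged 3.63 on the log2(CPM + 1) scale, against 2.66 to 2.78 in the other CCl4 kidneys. Serpina1 genes are close copies that can share reads. CCl4 replicate 4, a 10-week kidney, stood highest for Havcr1 (16.3 CPM) and for Ddit4, a stress-induced mTOR inhibitor (22.1 CPM), and lowest for Polk, a DNA polymerase (17.8 CPM). CCl4 replicate 2 stood lowest for Fdx1, ferredoxin of steroid synthesis (58.1 CPM).

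In 2 lists both 10-week kidneys lay above and both 6-week CCl4 kidneys below the whole olive oil range. Other lists had the schedules on opposite sides of the olive oil mean without clearing that range. Mean log2(CPM + 1) of NF-kB and cytokine response genes was 3.05 and 2.94 in 10-week and 2.69 and 2.68 in 6-week CCl4 kidneys, a difference of 0.31. Olive oil kidneys were at 2.85, 2.70 and 2.87. For neutrophil markers the mean was 1.74 and 1.31 in 10-week and 0.38 and 0.50 in 6-week CCl4 kidneys, a difference of 1.08. Olive oil kidneys were at 1.06, 0.56 and 1.03. In both lists the higher 6-week value lay only just below the lowest olive oil value. The differences between schedules in these lists were not tested.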

How the results depend on the processing

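Across the alternatives the count of genes called in CCl4 against olive oil kidneys remained 0 in edgeR and limma-voom and was 1 in DESeq2, and leaving out any 1 library gave 0 throughout. For 6-week against olive oil kidneys DESeq2 called 5, limma-voom with sample weights 3 and the fit of the 7 libraries 7. For 10-week against olive oil kidneys DESeq2 called 15 and limma-voom with sample weights 1. For 10-week against 6-week kidneys DESeq2 called 25, and limma-voom 8 with sample weights and 12 with group weights. The cause was not tested. CCl4 against CCl4+EtOH kidneys gave 5610 calls, 4127 to 7189 under other tools, and 3480 (without CCl4+EtOH replicate 1) to 7396 (without CCl4+EtOH replicate 3) with 1 library left out. It gave 3753 with only the 10-week CCl4 libraries in the contrast. These left-out EtOH and CCl4+EtOH libraries and the 10-week contrast were chosen after seeing the data.

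Of 4101 gene values under alternatives 32 changed sign, in 11 genes, none of them called. With limma-voom sample weights Havcr1 was at -0.09, Lcn2 at -0.07 and Cyp2e1 at 0.13, with group weights Havcr1 at -0.01 and Cyp2e1 at 0.02, and in 5 groups the neutrophil gene Ngp at -0.06 and Lcn2 at -0.02. With a block for title numbers the neutrophil genes Retnlg and Ngp were at -0.95 and -4.53, Havcr1 at -0.18, Lcn2 at -0.48 and Col1a1 at -0.33. Without both libraries high in brown fat transcripts, an alternative chosen after seeing the data, Cyp21a1 was at -0.79 and Nqo1 at 0.08. With 1 library left out, log2 fold changes ran from -0.34 to 0.52 for Col1a1, -0.62 to 3.95 for Cyp21a1, -0.22 to 0.29 for Cyp2e1, -0.44 to 0.47 for Havcr1, -0.23 to 0.71 for Lcn2, -0.18 to 1.03 for Retnlg, -0.12 to 0.03 for Tgfb1, -1.23 to 0.31 for Timp1 and -0.10 to 0.85 for Tnf. Of 456 list medians 39 moved. No paired analysis was possible because the labels give no replicate numbers that groups share. Depth limits genes of few counts: a total of 3 counts in the olive oil libraries equals 0.0516 CPM.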
